A study of Mus musculus with 4 samples.

Results

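The DNA replication and mitosis genes described here are 40 genes of the proliferating cell, 19 that act in or before DNA synthesis and 21 that act in chromosome segregation and division. They were taken from a list of gene symbols, which was chosen with earlier results of these data known. Where a gene had several probe sets, the brightest on average stood for it. Of the 40 genes, 39 had a probe set with a single gene name, all 19 replication genes and 20 of the 21 mitosis genes, out of 19938 named genes in all. The level of Ccnb1 is not analysed here, and only its promoter is counted, among the windows below.

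The cells were bone marrow progenitors of wild-type C57BL/6 mice and the T lineage cells grown from them. Lymphoid-primed multipotent progenitors (LMPPs) lack mature lineage markers, carry Sca1 and Kit and have high Flt3. Pooled LMPPs were held for 48 hours in the transduction medium, with IL-3, IL-6, SCF and Flt3 ligand, and measured on 1 array. Other LMPPs were given a retrovirus carrying Tcf1, the T lineage transcription factor encoded by Tcf7, and cultured on OP9 stroma, which presents no Notch ligand. On day 10, their Thy1+CD25+ progeny, called Tcf1 cells here, were hybridised to 2 arrays, which the labels call biological replicates. LMPPs given the empty vector were cultured on OP9-DL4 stroma, which presents the Notch ligand DL4, and their Thy1+CD25+ progeny of day 10, called control cells, were measured on 1 array. Both cultures held IL7 and Flt3 ligand, and both sorts took CD45.2+ cells without Mac1 and Gr1. Medium, cytokines, time in culture, stroma and, as described, receipt of a vector thus differed between LMPPs and both T lineage groups. Between Tcf1 and control cells, the kind of vector and the stroma differed. The effects of these factors cannot be told apart.

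As background, a dividing cell first licenses its replication origins, when Cdc6 and Cdt1 load the ring of Mcm proteins that later becomes the replicative helicase. E2F factors and cyclin E drive the entry into DNA synthesis, which needs polymerases, the sliding clamp and a supply of deoxynucleotides. Genes for mitosis are transcribed later in the cycle, when the MuvB complex acts with B-Myb and FoxM1 at promoter elements called CHR, often beside CCAAT boxes bound by NF-Y. In the thymus, some but not all CD25+ stages before the T cell receptor beta checkpoint, and cells just past it, contain many cycling cells. Transcripts of both classes are a common readout of proliferation there.

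The deposited values are RMA signals, taken as log2, and the number of arrays limits their precision. In Tcf1 replicate 1 the 75th percentile of signal was 9.12, against 9.32 to 9.35 elsewhere, so brightly expressed genes read lower as a class in that array. This touches the genes described here: 32 of the 39 lay above the 75th percentile of mean level. Among transcripts of the sorted surface markers, Il2ra and Thy1 read highest in the T lineage arrays and Flt3 in the LMPP array, as labelled. Kit and Itgam did not follow the labels in this way. Il2ra, which encodes CD25, read 6.88 in the LMPP array, 12.91 and 12.99 in the Tcf1 arrays and 13.64 in the control array, and Thy1 read 8.13, 12.38, 12.53 and 12.98. Flt3 read 11.91 in the LMPP array, 10.97 and 11.03 in the Tcf1 arrays and 6.75 in the control array. Kit was lowest in the LMPP array, at 9.68, against 11.17 and 11.27 in the Tcf1 arrays and 11.39 in the control array. Itgam, which encodes Mac1, was highest in the LMPP array, at 8.25, against 7.44 and 7.70 in the Tcf1 arrays and 7.03 in the control array.

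Tcf1 cells were first compared with LMPPs, to ask whether the input progenitors and the cells obtained with Tcf1 differed in the transcripts of the division machinery. Levels of the 39 genes ran from 8.30 to 13.05 over the 4 arrays, and each gene's mean lay above the median of all genes. For 20 of 20 mitosis genes both Tcf1 arrays lay below the LMPP array, and the median difference was -0.36 on the log2 scale. For replication genes this held in 15 of 19, with a median of -0.15. Among all named genes 36.8% had both Tcf1 arrays below the LMPP array and the median difference was 0.00, while the 4985 genes above the 75th percentile of level had a median of -0.12. The replication median was therefore close to that of other brightly expressed genes, and the mitosis median lay further down. Among those 4985 genes, the Tcf1 mean lay below the LMPP array for 3402, against 9771 of all 19938 named genes. Shares over all genes are thus not matched in level to the 39.

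No single gene passed the test across all genes. At an adjusted p under 0.05 (limma, Benjamini-Hochberg), 0 of 39 were lower and 0 of 39 were higher, against 1.31% and 1.75% of all genes. At an unadjusted p under 0.05 (limma), 3 replication genes and 8 mitosis genes were lower, or 15.8% and 40% of their class, against 9.22% of all genes, and 0 of 39 were higher, against 5.33%. The shares over all genes include many dimmer genes, and those among brightly expressed genes were not counted for this rule. The largest difference among the 39 was 1.62-fold, and the smallest that passed among all genes was 1.78-fold. In simulated data, 11.7% of the calls at an adjusted p under 0.05 (limma) were false in this comparison, above the nominal level. Of 1.5-fold changes, 2.85% were recovered. The count of 0 of 39 therefore cannot show that these genes were level. After centring each array on its median, Cdk1, Aurka, Ttk and Cdc20 passed (limma, adjusted, 4 of 39), with 1456 of all genes called in place of 610. After renewed quantile normalization 0 of 39 passed (limma, adjusted, 726 of all genes), and the differences of Mki67, Cdt1, E2f1 and Ccne2 changed sign. The test takes its spread from the Tcf1 pair and assumes that the single arrays vary as that pair does. In whole sorted populations, a smaller share of cycling cells and less RNA per cycling cell cannot be told apart.

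Among the licensing genes, the 6 subunits of the helicase ring differed little from LMPPs, with a median of -0.19. Mcm2 read 11.58 in the LMPP array, 11.13 and 11.23 in the Tcf1 arrays and 11.13 in the control array. Its difference between Tcf1 cells and LMPPs was -0.40 (SE 0.16, adjusted p = 0.322, limma), the largest of the ring. Mcm3 differed by -0.26, Mcm5 by -0.24, Mcm7 by -0.15 and Mcm4 by -0.12. Mcm6 was the exception in direction and read 11.29 in the LMPP array, 11.48 and 11.33 in the Tcf1 arrays and 11.43 in the control array. The loaders Cdc6 and Cdt1 differed by -0.22 and -0.07, and Tcf1 replicate 2 lay close to the LMPP array for both, at 9.13 against 9.21 for Cdc6 and at 10.25 against 10.25 for Cdt1.

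Gins1, a subunit of the GINS complex that activates the helicase, had the largest difference of the replication class. It read 9.17 in the LMPP array, 8.63 and 8.61 in the Tcf1 arrays and 8.52 in the control array. Tcf1 cells differed from LMPPs by -0.54 (SE 0.16, adjusted p = 0.161, limma), and the 3 T lineage arrays lay together below the LMPP array. Mcm10, which also acts in helicase activation, and Pola1, the catalytic subunit of the primase-bound polymerase, both differed by -0.31. For both, the control array was the lowest of the 4, at 9.26 for Mcm10 and 9.39 for Pola1, against LMPP levels of 9.84 and 9.97.

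Genes of nucleotide supply and of the clamp were nearly level. Rrm1 and Rrm2, the subunits of ribonucleotide reductase, differed from LMPPs by -0.19 and -0.12, and Tyms, which makes thymidylate, by -0.12. Pcna, the sliding clamp, read 12.80 in the LMPP array, 12.94 and 13.05 in the Tcf1 arrays and 13.03 in the control array, so all 3 T lineage arrays lay above the LMPP array. Its difference of 0.19 (SE 0.16) did not pass (adjusted p = 0.751, limma). A second Pcna probe set gave 0.20.

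Regulators of entry into DNA synthesis were divided. Ccne1, a cyclin E gene, read 10.57 in the LMPP array, 10.11 and 10.12 in the Tcf1 arrays and 10.07 in the control array. Its difference was -0.46 (SE 0.16, adjusted p = 0.239, limma), while its paralogue Ccne2 differed by -0.12. E2f1, an activating E2F factor, differed by -0.06, with Tcf1 replicate 2 above the LMPP array. E2f2, another activator, read 8.37 in the LMPP array, 8.32 and 8.62 in the Tcf1 arrays and 8.88 in the control array. It was the only replication gene that was highest in control cells.

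**Figure D1:**
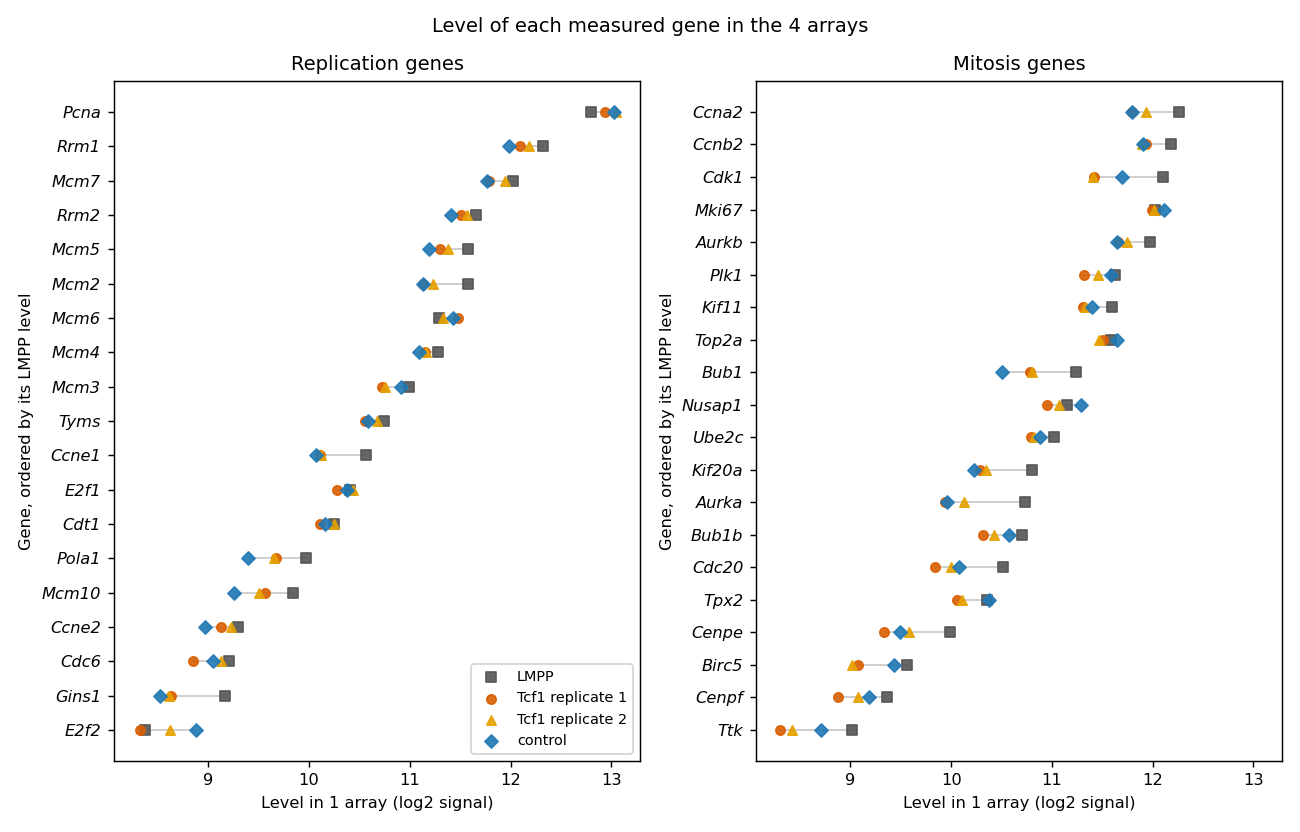
Log2 signal of the 19 replication genes and the 20 measured mitosis genes, 1 point per array: LMPP (square), Tcf1 replicates 1 and 2 (circle and triangle) and control (diamond). The LMPP square is rightmost for 15 replication and 16 mitosis genes, and the control diamond lies left of both Tcf1 points for many replication genes but right of them for most mitosis genes.

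Among mitosis genes, the differences from LMPPs were largest for the kinases Aurka, Cdk1 and Ttk. Aurka, which matures the spindle poles, read 10.73 in the LMPP array, 9.94 and 10.13 in the Tcf1 arrays and 9.96 in the control array. Its difference was -0.69 (SE 0.17, adjusted p = 0.103, limma), and the T lineage arrays lay together well below the LMPP array. Cdk1, the kinase that drives entry into mitosis, read 12.10 in the LMPP array, 11.42 and 11.41 in the Tcf1 arrays and 11.70 in the control array. Here the control array lay between the LMPP array and the Tcf1 pair, and the difference was -0.68 (SE 0.16, adjusted p = 0.0862, limma), the smallest adjusted p of the 39. Ttk, a kinase of the spindle checkpoint, read 9.02, 8.30, 8.42 and 8.71 in the LMPP array, Tcf1 replicates 1 and 2 and the control array, a difference of -0.66 (SE 0.17, adjusted p = 0.103, limma). Aurkb, the kinase of the chromosomal passenger complex, differed by -0.27 and Plk1, which acts from mitotic entry to division, by -0.24.

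Checkpoint and anaphase genes followed the same direction. Cdc20, an activator of the anaphase-promoting complex, read 10.51 in the LMPP array, 9.84 and 10.00 in the Tcf1 arrays and 10.08 in the control array, a difference of -0.59 (SE 0.17, adjusted p = 0.148, limma). Ube2c, the ubiquitin-conjugating enzyme of that complex, differed by -0.21. Bub1 and Bub1b, kinetochore proteins of the spindle checkpoint, differed by -0.45 and -0.33. Birc5, or survivin, the partner of Aurkb, read 9.56 in the LMPP array, 9.07 and 9.02 in the Tcf1 arrays and 9.43 in the control array. For Birc5 the difference from LMPPs was -0.52 (SE 0.16, adjusted p = 0.185, limma), and the control array differed from the LMPP array by -0.13.

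For cyclins and structural proteins of the spindle and kinetochore, both Tcf1 arrays again lay below the LMPP array. Ccna2, or cyclin A, differed by -0.40 and Ccnb2, a mitotic cyclin, by -0.27. Cenpe, a kinetochore motor, differed by -0.53 and Cenpf, a large kinetochore protein, by -0.39. The spindle motors Kif20a and Kif11 differed by -0.48 and -0.27, and the spindle assembly factors Tpx2 and Nusap1 by -0.27 and -0.14.

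Within the mitosis class, Mki67 and Top2a, both widely used as proliferation markers, differed least from LMPPs. Mki67, which encodes the Ki-67 antigen, read 12.02 in the LMPP array, 11.99 and 12.01 in the Tcf1 arrays and 12.11 in the control array. Its difference from LMPPs was -0.02 (SE 0.16, adjusted p = 0.985, limma). Top2a, the topoisomerase that untangles sister chromatids, differed by -0.10, with the control array the highest of the 4 at 11.65. A second Top2a probe set was dim, at 4.99 to 5.61, and gave -0.38.

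Tcf1 cells were then compared with control cells, to ask whether T lineage cells obtained with Tcf1 without Notch ligand and those obtained with Notch ligand differed in these transcripts. The medians of the classes lay on opposite sides of 0, close to it. Both Tcf1 arrays lay above the control array for 11 of 19 replication genes and below it for 2 of 19, with a median difference of 0.05. Both lay below it for 13 of 20 mitosis genes and above it for 3 of 20, with a median of -0.13. Among all named genes, 38.6% had both Tcf1 arrays above the control array and 34.2% below it, with a median of 0.02, and among genes above the 75th percentile of level these shares were 31.7% and 47.6%, with a median of -0.06. After renewed quantile normalization the medians were 0.14 for replication, -0.04 for mitosis and 0.03 for those brightly expressed genes, and after median centring the replication median was 0.01. Again 0 of 39 genes passed in either direction at an adjusted p under 0.05 (limma), against 1.90% of all genes higher and 2.49% lower. In simulated data, 12.7% of the calls at that threshold were false here. Of 1.5-fold changes, 4.4% were recovered, so the count of 0 of 39 cannot show that the genes were level either. Birc5 alone had an unadjusted p under 0.05 (limma), 1 of 39 against 14.1% of all genes in either direction.

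The replication genes that read highest in Tcf1 cells relative to control cells were Pola1 and Mcm10, both with a difference of 0.27 (SE 0.16), Ccne2 with 0.21, Rrm1 with 0.16 and Mcm5 with 0.15. Pola1 read 9.67 and 9.65 in the Tcf1 arrays and Mcm10 9.56 and 9.50, so the pair lay close together and above the control array for each gene. The smallest adjusted p among these 5 was 0.589 (limma). The helicase ring as a whole had a median of 0.06. In the other direction, E2f2 differed by -0.41 (SE 0.19, adjusted p = 0.416, limma) and Mcm3 by -0.18.

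Mitosis genes with the largest differences from control cells were Birc5 at -0.38 (SE 0.16, adjusted p = 0.352, limma), Ttk at -0.35, Tpx2 at -0.30, Cdk1 at -0.29 and Nusap1 at -0.28. For Tpx2 and Nusap1 the control array was also above the LMPP array. Tpx2 read 10.36 in the LMPP array, 10.06 and 10.11 in the Tcf1 arrays and 10.38 in the control array, and Nusap1 read 11.15, 10.95, 11.07 and 11.29. Bub1 stood on the opposite side. It read 10.78 and 10.80 in the Tcf1 arrays and 10.50 in the control array, a difference of 0.29 (SE 0.16, adjusted p = 0.543, limma), and its LMPP level was 11.24. Aurkb and Kif20a were the other mitosis genes with both Tcf1 arrays above the control array, by 0.05 and 0.09.

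**Figure D2:**
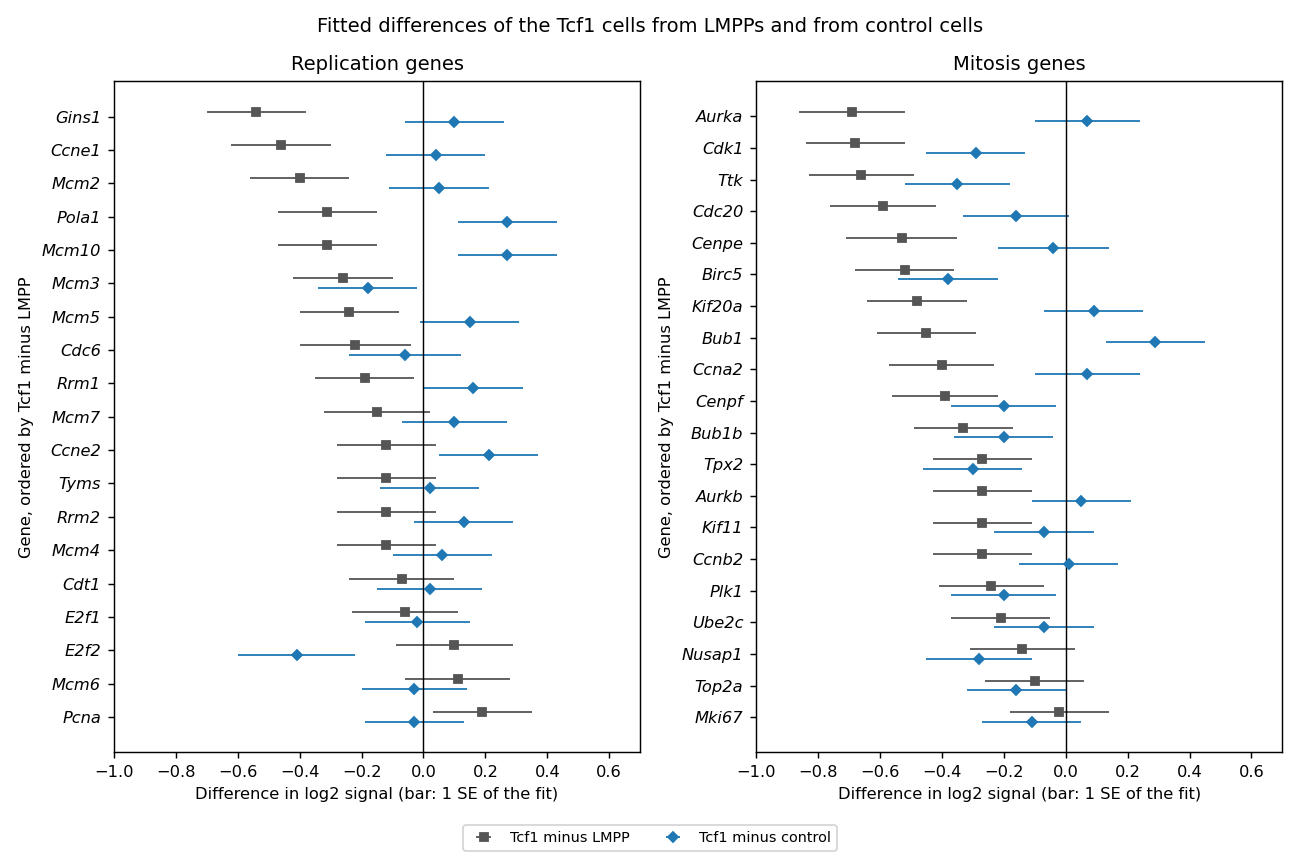
Fitted differences in log2 signal of Tcf1 cells from LMPPs (squares) and from control cells (diamonds) for each measured gene, with bars of 1 SE from the fit. The squares run from -0.54 to 0.19 for replication genes and from -0.69 to -0.02 for mitosis genes, and the diamonds from -0.41 to 0.27 and from -0.38 to 0.29.

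The comparison of control cells with LMPPs rests on single arrays and has no test. The control array lay below the LMPP array for 16 of 19 replication and 16 of 20 mitosis genes, against 52.7% of all genes. The medians of the classes were nearly equal, at -0.25 and -0.24, with -0.01 over all genes and -0.06 over those above the 75th percentile of level. At least 1.5-fold below LMPPs were Gins1, Pola1, Aurka and Bub1, 4 of 39 or 10.3% against 6.98% of all genes, with differences of -0.65, -0.59, -0.77 and -0.74. Mcm10 lay just short of that fold at -0.58. E2f2 was the gene furthest above LMPPs in control cells, by 0.51, followed by Pcna at 0.23, Mcm6 and Nusap1 at 0.14, Mki67 at 0.08, Top2a at 0.06 and Tpx2 at 0.03.

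**Figure D3:**
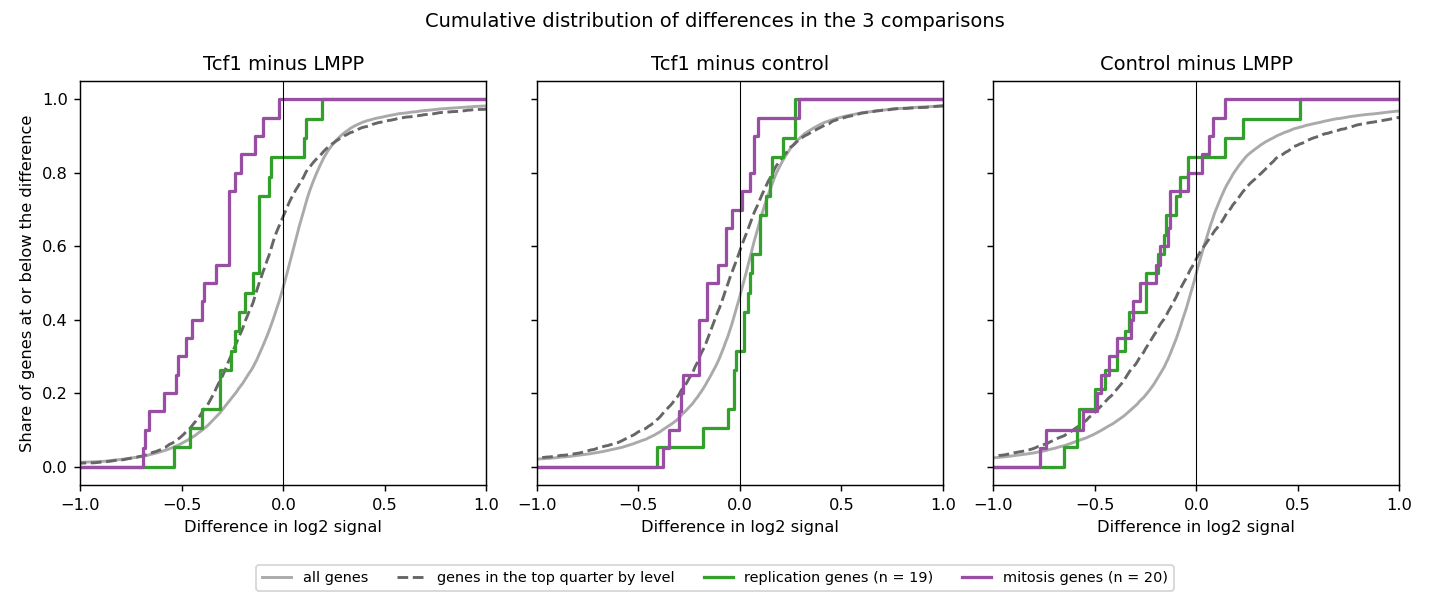
Cumulative share of genes at or below each difference in log2 signal, for replication genes (n = 19), mitosis genes (n = 20), all 19938 named genes and the genes above the 75th percentile of level. Over most of its length the mitosis curve lies left of the replication curve in both comparisons of Tcf1 cells, with medians of -0.36 and -0.15 against LMPPs, and the curves run together for control cells against LMPPs.

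Over all 4 arrays, the LMPP array was the highest for 31 of 39 genes, 15 of 19 replication and 16 of 20 mitosis genes, against 28.8% of all genes. The share among brightly expressed genes was not counted for this rule. The control array was the lowest for 11 of 19 replication genes and 3 of 20 mitosis genes, against 29.4% of all genes. A Tcf1 array, either of 2, was the lowest for 6 of 19 replication and 17 of 20 mitosis genes, 13 of the latter in Tcf1 replicate 1, against 44.8% of all genes and 51.9% of genes above the 75th percentile of level. In Tcf1 cells against LMPPs, the mitosis median minus the replication median was -0.21, and it was -0.20 with replicate 2 alone, -0.19 with replicate 1 alone and -0.17 after renewed quantile normalization. In Tcf1 cells against control cells this gap was -0.19, and -0.18 after renewed quantile normalization. In control cells against LMPPs it was 0.01. The comparisons share arrays, so these gaps are not independent of each other, and no test of a difference between classes was made.

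The size of the shift from LMPPs depended more on the Tcf1 array than the gap did. Replicate 2 read higher than replicate 1 for 31 of 39 genes, with differences from -0.15 to 0.30 over the 39. The share over all genes was not counted for this rule. The median of replicate 2 minus replicate 1 was 0.10 for replication and 0.07 for mitosis genes. It was 0.08 over all genes and 0.13 over those above the 75th percentile of level, so the offset was not particular to the 39. With replicate 1 alone the medians from LMPPs were -0.23 for replication and -0.42 for mitosis genes, and with replicate 2 alone they were -0.09 and -0.29. Genes above the 75th percentile of level moved in the same way, from -0.18 with replicate 1 to -0.06 with replicate 2. After renewed quantile normalization the class medians were -0.07 and -0.24, beside -0.02 for those brightly expressed genes.

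Other genes of the pathway, from lists without any of the 40, had class medians in the same order in the comparisons of Tcf1 cells. The position of the control array was similar for the mitosis list but not for the replication list. These lists too were chosen with earlier results of these data known. Of 44 measured replication genes outside the 40, 0 passed against LMPPs or control cells (limma, adjusted), with medians of -0.26 and 0.00. At an unadjusted p under 0.05 (limma), 9 of the 44 were lower than in LMPPs, 20.5% against 9.22% of all genes. Both Tcf1 arrays lay above the control array for 13 of the 44 (29.5%) and below it for 17 (38.6%). These shares were 38.6% and 34.2% of all genes, and 31.7% and 47.6% of genes above the 75th percentile of level. A Tcf1 array was the lowest for 31 of the 44 (70.5%), against 44.8% of all genes and 51.9% of those brightly expressed genes. The majority above the control array among the 19 replication genes was thus not found in these 44. Of 57 mitosis genes outside the 40, 1 passed in each comparison, or 1.75%, near the 1.31% of all genes lower than in LMPPs and the 2.49% lower than in control cells. Their medians were -0.40 and -0.14. Both Tcf1 arrays lay below the control array for 35 of the 57 (61.4%), against 34.2% of all genes and 47.6% of those brightly expressed genes. Both lay above it for 11 (19.3%), against 38.6% and 31.7%. Kif2c, a microtubule-depolymerizing kinesin of the centromere, fell relative to LMPPs, from 10.36 to 9.49 and 9.57, a difference of -0.83 (SE 0.16, adjusted p = 0.0488, limma). Cdc25b, a phosphatase that activates Cdk1, was lower in Tcf1 cells than in control cells, at 9.22 and 9.28 against 10.38 (difference -1.13, SE 0.16, adjusted p = 0.0118, limma). The LMPP level of Cdc25b was 9.18, so control cells stood apart there. At an unadjusted p under 0.05 (limma), 28 of the 57 were lower than in LMPPs, 49.1% against the 9.22% of all genes.

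The largest differences among replication genes outside the 40 were those of Orc1, a subunit of the origin recognition complex. It read 9.05 in the LMPP array, 8.08 and 8.28 in the Tcf1 arrays and 7.99 in the control array, a difference of -0.86 from LMPPs (SE 0.17) that did not pass (adjusted p = 0.0552, limma). Orc2, of the same complex, differed by -0.55 and Rfc3, a clamp loader subunit, by -0.50. Relative to control cells, Cdc7, a kinase that fires origins, differed by -0.56, Rfc4, a clamp loader subunit, by 0.54, and Orc5 by 0.52, with adjusted p-values from 0.143 to 0.203 (limma).

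Of 26 cell cycle regulators, 0 passed in either comparison (limma, adjusted), and 9 were lower than in LMPPs and 0 higher at an unadjusted p under 0.05 (limma), 34.6% against 9.22% of all genes lower and 5.33% higher. Their medians were -0.24 from LMPPs and -0.06 from control cells. E2f7, a repressing E2F, differed from LMPPs by -0.79 (SE 0.18, adjusted p = 0.0793, limma), and Mybl2, the B-Myb partner of MuvB, by -0.77 (SE 0.16, adjusted p = 0.0614, limma). Mybl2 read 10.26 in the LMPP array, 9.49 in both Tcf1 arrays and 9.69 in the control array. E2f5, another E2F factor, differed by -0.62. Relative to control cells, Mybl1, a relative of B-Myb, differed by -0.89 (SE 0.19, adjusted p = 0.0538, limma), Foxm1 by -0.46 and Fbxo5, an inhibitor of the anaphase-promoting complex, by -0.40. Foxm1 read 9.75 in the LMPP array, 9.74 and 9.99 in the Tcf1 arrays and 10.33 in the control array.

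**Figure D4:**
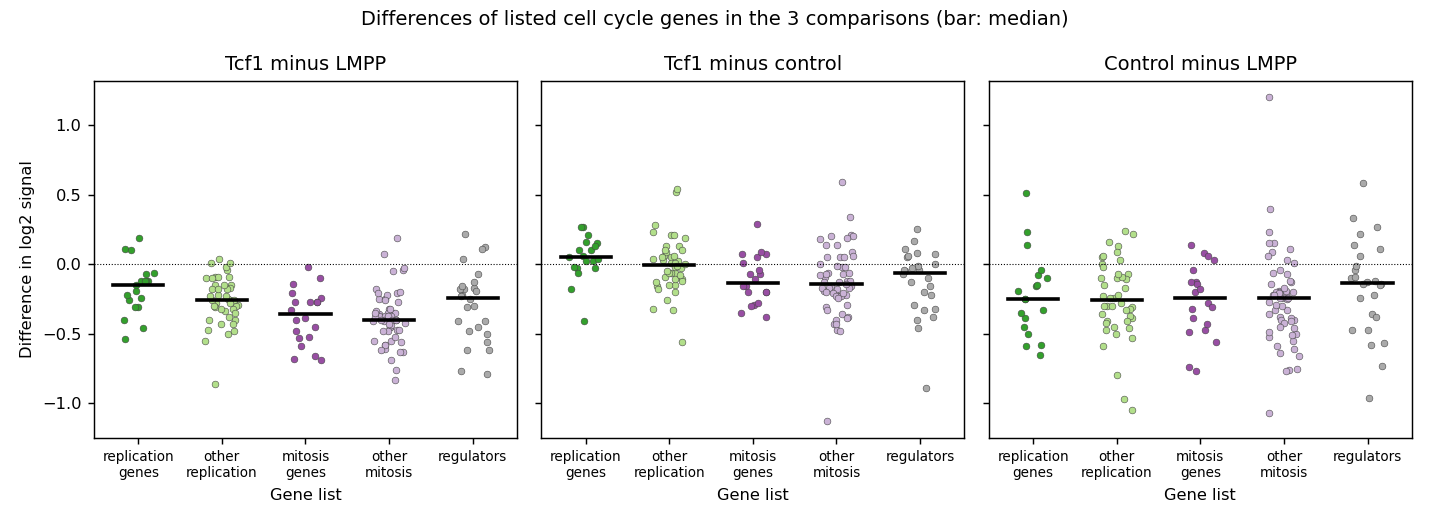
Difference in log2 signal for each gene of 5 lists in the 3 comparisons, with a bar at each median. Lists are the 19 replication and 20 mitosis genes, 44 and 57 further genes of these classes and 26 regulators. The medians of both mitosis lists lie below those of both replication lists in the comparisons of Tcf1 cells, and all 4 lie between -0.26 and -0.24 for control cells against LMPPs.

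The classes also differed in promoter sequence. They were drawn by role in the cycle, and the background above already ties mitosis genes to CHR and CCAAT elements. The promoter words are therefore no independent support for the classes. RefSeq promoter windows of 300 bases on build GRCm38.p6, 250 before and 50 from the annotated start, were found for 16 of the 19 replication genes (18 windows) and 17 of the 21 mitosis genes (17 windows, Ccnb1 among them). Words of 3 kinds were searched on both strands. The NF-Y box was searched as CCAAT. The CHR element was searched in the form TTTGAA and also in the form TTTAAA. The E2F site was searched in the form GCGGGAA, further in the form GCGCGAA and last in the form GCGCCAA. An E2F word was present in 10 of 18 replication windows (55.6%) and 3 of 17 mitosis windows (17.6%), against 8.07% of all 32851 windows and 10.4% of windows of protein-coding genes. A CHR word was present in 5 of 18 replication windows (27.8%) and 15 of 17 mitosis windows (88.2%), against 27.6% and 25.0%. CCAAT was present in 13 of 18 (72.2%) and 15 of 17 (88.2%), against 37.4% and 38.2%. CHR and CCAAT words stood together in 14 of 17 mitosis windows (82.4%), against 10.7% of all windows. An E2F and a CCAAT word overlapped in the windows of Ccnb1 and Mcm7, and E2F words overlapped each other in those of Mcm3, Mcm5, Mcm6 and Mcm7. A match of letters is a description and not a binding site.

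The promoters of the 2 genes of each class with the largest differences between Tcf1 cells and LMPPs that had a window are shown, with all searched words in capitals. The annotated start follows the first 250 bases. Mcm6 was added after its words were seen, as the window with the most E2F words. Aurka lies at chr2:172370521-172370820, Cdk1 at chr10:69352863-69353162, Ccne1 at chr7:38107441-38107740, Mcm2 at chr6:88898731-88899030 and Mcm6 at chr1:128359656-128359955, all on the minus strand and printed 5′ to 3′ along the gene.
Aurka: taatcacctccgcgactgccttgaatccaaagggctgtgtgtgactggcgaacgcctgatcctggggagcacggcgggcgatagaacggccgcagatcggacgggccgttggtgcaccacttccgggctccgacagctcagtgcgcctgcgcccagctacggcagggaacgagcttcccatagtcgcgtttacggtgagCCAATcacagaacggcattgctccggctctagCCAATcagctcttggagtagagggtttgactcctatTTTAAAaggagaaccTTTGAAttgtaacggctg
Cdk1: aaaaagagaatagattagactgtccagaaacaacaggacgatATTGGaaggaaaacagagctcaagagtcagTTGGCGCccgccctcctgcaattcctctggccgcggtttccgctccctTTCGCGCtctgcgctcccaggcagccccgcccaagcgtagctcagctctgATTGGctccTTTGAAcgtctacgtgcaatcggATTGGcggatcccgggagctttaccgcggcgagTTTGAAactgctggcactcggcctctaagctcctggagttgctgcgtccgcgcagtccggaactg
Ccne1: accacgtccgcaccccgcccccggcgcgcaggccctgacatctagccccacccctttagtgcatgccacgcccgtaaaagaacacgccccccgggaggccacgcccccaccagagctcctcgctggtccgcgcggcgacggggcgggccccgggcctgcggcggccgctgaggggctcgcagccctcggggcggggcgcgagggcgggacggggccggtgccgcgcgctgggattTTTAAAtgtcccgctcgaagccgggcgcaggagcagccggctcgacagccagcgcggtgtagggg
Mcm2: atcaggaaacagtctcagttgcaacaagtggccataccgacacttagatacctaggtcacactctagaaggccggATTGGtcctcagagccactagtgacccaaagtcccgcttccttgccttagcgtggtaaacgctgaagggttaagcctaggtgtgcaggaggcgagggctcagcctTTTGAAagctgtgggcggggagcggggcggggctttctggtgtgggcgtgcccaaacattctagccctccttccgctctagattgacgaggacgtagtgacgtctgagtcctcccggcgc
Mcm6: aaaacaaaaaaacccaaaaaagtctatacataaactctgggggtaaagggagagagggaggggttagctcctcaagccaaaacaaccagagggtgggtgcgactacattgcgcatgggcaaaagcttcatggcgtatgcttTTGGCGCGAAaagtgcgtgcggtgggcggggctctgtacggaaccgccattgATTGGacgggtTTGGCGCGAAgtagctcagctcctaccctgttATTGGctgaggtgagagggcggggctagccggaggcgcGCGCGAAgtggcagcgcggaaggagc

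The Aurka and Cdk1 windows each hold CCAAT words (ATTGG on the opposite strand) and a pair of CHR words, and Cdk1 also holds E2F words. In the Ccne1 window the only match is a CHR word at position -15 from the start, and in the Mcm2 window the matches are a CCAAT and a CHR word. In the Mcm6 window, E2F words in opposite orientation overlap at positions -109 and -106 and again at -46 and -43. Mcm6, Pcna and E2f2 were the 3 replication genes whose Tcf1 mean did not lie below the LMPP array. An E2F word of these letters was present in the Mcm6 window and in 1 of the windows of E2f2, and the Pcna window held a CCAAT word without any E2F word.

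**Figure D5:**
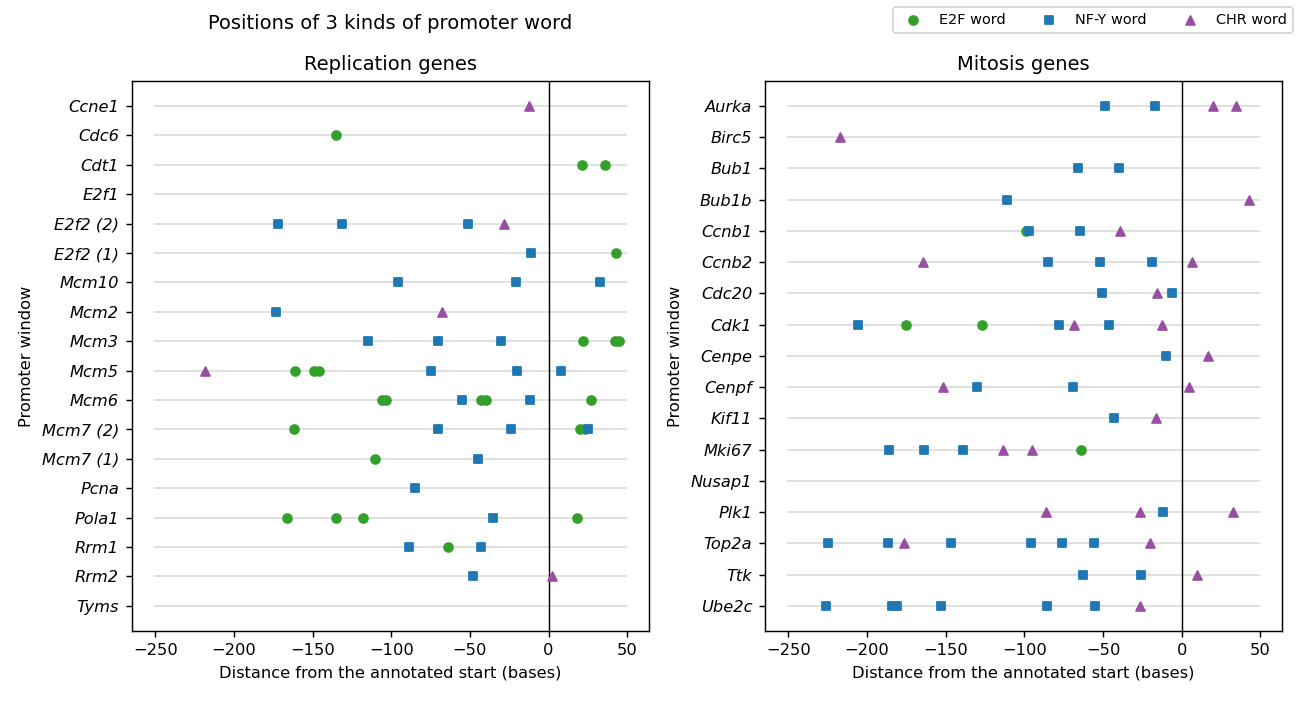
Distance from the annotated start, in bases, of E2F words (circles), CCAAT words searched as the NF-Y box (squares) and CHR words (triangles). Promoter windows are 18 of replication and 17 of mitosis genes. Each point marks the middle of a word. Circles are found in 10 replication and 3 mitosis windows and triangles in 5 and 15. The first base of the CHR words in mitosis windows has a median position of -23.

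Some markers of other cell types differed between the groups, and others were nearly level. The summed linear signal of 15 macrophage markers was 4393 in the LMPP array, 10055 and 12899 in the Tcf1 arrays and 1858 in the control array. Against control cells 8 of the 15 were higher in Tcf1 cells and 0 lower (limma, adjusted), beside 1.90% and 2.49% of all genes. Against LMPPs 5 were higher and 0 lower (limma, adjusted), beside 1.75% and 1.31%. The 12 granulocyte markers summed to 15734 in the LMPP array, 9093 and 8256 in the Tcf1 arrays and 2891 in the control array. Of these 12, 1 was higher and 6 were lower than in LMPPs, and 4 were higher and 0 lower than in control cells (limma, adjusted). The 14 stromal markers summed to 2843, 10782, 11841 and 8833 in the same order. Against LMPPs Timp3, Thbs1, Bgn and Fn1 rose, by 3.75, 3.12, 2.25 and 1.90 on the log2 scale, and 0 of the 14 were lower (limma, adjusted). Against control cells 2 were higher and 1 lower (limma, adjusted). Col1a1, a main stromal collagen, read 8.12 to 8.38 and Dcn, or decorin, 5.83 to 5.98 over the 4 arrays. No marker is at 0 on a log2 array scale. The part of these cells, or of their transcripts in the sorted cells, in the differences of replication and mitosis genes was not tested.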

How the data were processed

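RNA of 4 samples was hybridised to 1-colour Affymetrix whole-transcript arrays. The authors made the deposited values with RMA in Partek 6.5, per the submitters' processing notes; their range, 3.44 to 14.45, is that of log2 signal, and the log base is otherwise unstated. The array's build was not given in the sources used here. The deposited log2 values were used as given.

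Of 35399 probe sets, 21789 had 1 gene symbol, 1621 several and 11989 none in the platform annotation. The probe set with the highest mean stood for each of 19938 genes, 999 of which had several. Genes were fitted together with limma 3.58.1 in R 4.3.3, with 1 mean per group and Benjamini-Hochberg adjustment over all genes. The Tcf1 pair gives 1 residual degree of freedom, moderated with 5.78 prior ones, and single LMPP and control arrays are assumed to vary as that pair. The scripts were tested on simulated data, where 11.7% of calls against LMPPs and 12.7% of calls against control cells were false. Genes that passed should be read with that in mind. Control against LMPP had no test.

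All 40 genes of the list are named, and of other lists the genes past the test or, where none passed, the 3 with the largest differences. Genes and lists were chosen with earlier results of these data known. Promoters came from RefSeq, GRCm38.p6. Alternatives were other scaling, filters, probe set rules, a mean-variance trend and leaving out arrays.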

Additional observations from a re-analysis of the deposited data

How the results depend on the processing

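Against LMPPs, the number of the 39 genes past the test (limma, adjusted p) was 0 with the deposited scaling, 4 after median centring (Cdk1, Aurka, Ttk and Cdc20), 3 among genes above the 25th percentile of level and 3 among genes above the median (Cdk1, Aurka and Ttk each time), and 2 with a mean-variance trend (Cdk1 and Ccna2). It was 0 after renewed quantile normalization, with the mean of a gene's probe sets and with all probe sets tested together. Over all genes these settings called 610 with the deposited scaling, 1456 after centring, 1196 and 1189 with the filters and 936 with the trend, and against control cells 874, 1646, 1437, 1295 and 1237. Against control cells 0 of the 39 passed in every setting run. The cause of these changes was not tested. The replication median against control cells, 0.05, was 0.14 after quantile normalization and 0.01 after centring. The mitosis median against LMPPs, -0.36, was -0.24 after quantile normalization, and that against control cells, -0.13, was -0.04 after quantile normalization and -0.18 after centring. Without either Tcf1 replicate, the replication medians ranged from -0.23 to -0.09 against LMPPs and from 0.04 to 0.09 against control cells, and the mitosis medians from -0.42 to -0.29 and from -0.15 to -0.09. Leaving out a Tcf1 array leaves no residual degrees of freedom, so those values have no test. No paired analysis was possible because LMPPs and control cells have 1 array each. Differences between 2 single arrays carry no replicate error, and the number of arrays limits the precision of all values.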
